A study of Mus musculus with 3 samples.

Results

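Among the unstimulated CD4+ T cells, the cells that carried many transcripts of Ly6c1 were set against the cells in which none was counted. Ly6c1 encodes Ly6C, a small surface protein held in the membrane by a lipid anchor. The Ly6c1-high cells were chosen by their Ly6c1 unique molecular identifiers (UMIs, tags that count single captured RNA molecules), so their Ly6c1 level is what selected them and is not a result. A cell entered when it held 3000 to 8000 UMIs, less than 5% of them from mitochondrial genes, and no UMI of Foxp3 or S100a4, which mark regulatory and memory cells. Of 5993 such cells, 1980 (33.0%) had 3 or more Ly6c1 UMIs and form the Ly6c1-high group, 2250 (37.5%) had 0 and form the Ly6c1-negative group, and 1763 with 1 or 2 stood between them. They came from an unstimulated library of 8253 barcodes, in a series of 32505.

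The study prepared 3 single-cell RNA-seq libraries of splenic CD4+ T cells from C57BL/6 mice, 1 per condition, to find genes involved in CD4+ T cell activation and the role of the intraflagellar transport protein IFT20 in it. Naive cells were enriched with magnetic beads and sorted as 7AAD-CD3+CD4+. The unstimulated library (WT none) came from Ift20 f/f mice and was kept in DPBS. The stimulated WT library (WT CD3/CD28) came from Ift20 f/f mice and was treated for 24 h with anti-CD3 and anti-CD28, each at 1 μg/mL. The stimulated knockout library (IFT20-KO CD3/CD28) had the same treatment and came from Ift20 f/f CD4 cre mice, in which a Cre recombinase driven by a Cd4 promoter removes the floxed Ift20 alleles that the WT mice also carry. The study's methods describe its mice as young males, and the labels do not tie a library to a number of animals. The totals were 37325332, 117734032 and 106459650 UMIs in this order, with medians of 4576, 11870.5 and 4981 UMIs per barcode. The unstimulated library shared 125 cell barcode sequences with the stimulated WT library and 141 with the knockout library, of which 27 and 36 were Ly6c1-high cells.

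Naive CD4+ T cells are not uniform. While they circulate, their T cell receptors are touched continually by self peptides on MHC, and cells whose receptors respond more to self are known to carry more CD5, a membrane protein that dampens receptor signalling, whereas Ly6C is known to be carried by the naive cells with less of that contact. Ly6C is also known to respond to interferons, as do its neighbours Ly6a (Sca-1) and Ly6e.

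The genes for these proteins lie together. On GRCm38, Ly6e spans chr15:74955051-74959905 on the plus strand, Ly6a spans chr15:74994877-74998031 and Ly6c1 chr15:75044018-75048830, both on the minus strand. Ly6c2, a near copy of Ly6c1 whose reads can be mistaken for it, spans chr15:75108158-75111970. The 100 bases before the Ly6c1 start are shown because this is the gene the cells were chosen by (RefSeq window, chr15:75048838-75048937, minus strand). In the 250 bases before the start, neither TTCNNNGAA, the palindrome that STAT dimers are known to bind, nor GAAANNGAAA, the core of the interferon-stimulated response element, was found on either strand, so no base is in capitals.
Ly6c1: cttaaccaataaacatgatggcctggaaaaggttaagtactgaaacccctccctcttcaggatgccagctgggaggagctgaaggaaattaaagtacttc

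The label of naive T cells was checked against marker genes. Cd3d, a chain of the T cell receptor complex, stood at 1025 CPM (UMIs of a gene per 1000000 UMIs, both summed over the cells of a group) in Ly6c1-high cells and at 1047 CPM in Ly6c1-negative cells, and Cd4 at 218.7 and 210.6 CPM. Lef1, a transcription factor of naive T cells, stood at 647.1 and 700.2 CPM, and Cd44, which memory cells carry, at 15.5 and 13.6 CPM. The other memory markers had log2 ratios, Ly6c1-high over Ly6c1-negative, of -0.43 (Itgb1), -2.21 (Cxcr3), -0.24 (Ccl5) and 0.01 (S100a6). Their means were 24.2, 1.97, 3.60 and 7.08 CPM, and S100a4 was at 0 by the choice of cells. More memory or effector genes are given below. All 8 T cell markers had log2 ratios between -0.32 and 0.32, and the erythroid and platelet markers, 7 in all, were at 0 UMIs in both. The defining B cell genes Ms4a1, Igkc and Pax5, the myeloid genes Lyz2, Itgax, S100a8 and S100a9, the natural killer genes Klrb1c and Ncr1 and the plasmacytoid dendritic cell gene Siglech were also at 0 UMIs in both groups. Other genes of these lists were present: Ighm, Klrd1, Cst3 and Cd8b1 at 340.2, 60.9, 75.5 and 36.4 CPM in Ly6c1-high and 242.0, 27.0, 81.9 and 23.4 CPM in Ly6c1-negative cells, and Cd79a at 1 and 17 UMIs. Cd3e was found in 99.3% and 99.2% of cells and Cd4 in 65.9% and 61.7%.

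Ly6c1 UMIs per cell showed no gap at the limit. There were 1029 cells with 1 UMI, 734 with 2, just outside the limit, 532 with 3, just inside it, and 418 with 4, and the highest count was 29. The median Ly6c1-high cell held 5. Depth moved with the choice: the median was 4965 UMIs in Ly6c1-high and 4671.5 in Ly6c1-negative cells. Genes detected per cell were 1721 and 1707, and 1209.5 and 1251 once every cell was thinned at random to 3000 UMIs. Mitochondrial genes took 2.26% and 2.24% of a cell's UMIs, and ribosomal protein genes 33.4% and 31.6% (medians).

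**Figure D1:**
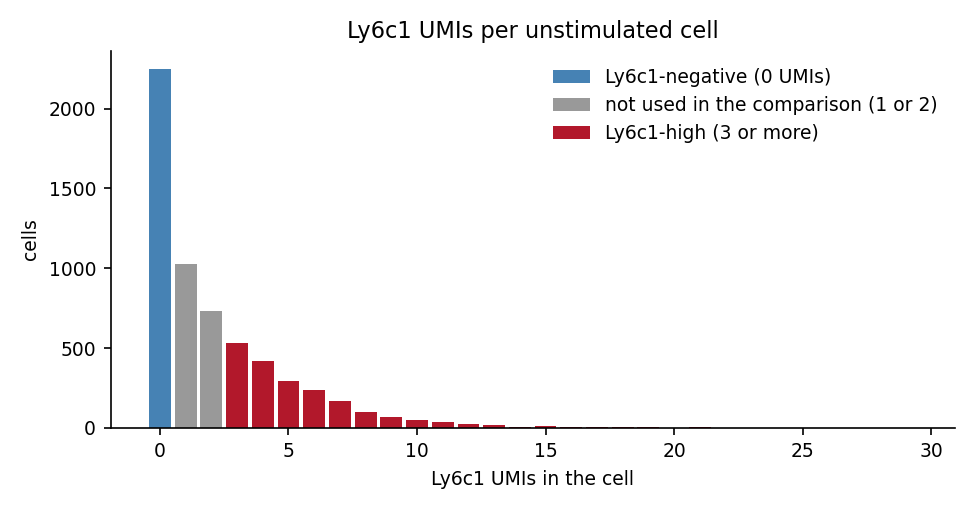
Number of cells of the unstimulated library passing the limits (vertical axis) by Ly6c1 UMIs in the cell (horizontal axis). The 2250 cells at 0 UMIs are blue, the 1763 at 1 or 2, used by neither group, grey and the 1980 at 3 or more red. The number goes from 734 cells at 2 UMIs to 532 at 3, with no gap at the limit.

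Compared with Ly6c1-negative cells, Ly6c1-high cells held more RNA of Ly6a, Pdlim4, Ly6e and several interferon-inducible genes, and less of Izumo1r, Ephx1, Id3, Cd5 and Cd6. Of 2535 genes with a mean of at least 50 CPM over both groups, Ly6c1 left out, 23 (0.907%) were higher in Ly6c1-high cells by more than 25% and 54 (2.13%) lower by more than 20%, that is, past a log2 ratio of 0.32 in either direction. Genes past these limits are called higher or lower here, and the others, 97.0% of all, within the limits. A log2 ratio above 0 was found for 28.8% of the genes and one below 0 for 71.2%. Only Ly6a and Pdlim4 were more than 2-fold higher and only Izumo1r and Ephx1 more than 2-fold lower, while 90% of the genes had log2 ratios from -0.25 to 0.13. The median log2 ratio was -0.06, and when both groups were scaled so that it became 0, 37 genes were higher and 36 lower. Each group comes from 1 library and cells are not replicates, so no test was made. The intervals given here are exact 95% intervals (Poisson for CPM, Clopper-Pearson for shares of cells, binomial for log2 ratios), which cover counting error only and not the spread between mice.

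Ly6a, which encodes Sca-1, had the highest ratio of the genes with a mean of at least 50 CPM. It stood at 558.9 CPM (544.3 to 573.7) in Ly6c1-high cells and at 184.1 CPM (176.0 to 192.3) in Ly6c1-negative cells, a log2 ratio of 1.60 (1.53 to 1.68). A Ly6a UMI was found in 78.5% and 40.4% of the cells, and in 68.5% and 31.0% after thinning to 3000 UMIs. Ly6a was thus also present in many cells in which no Ly6c1 was counted. Ly6e, the third gene of this cluster, stood at 1827 and 1136 CPM (log2 ratio 0.68, 0.65 to 0.72), and was found in 99.5% and 94.98% of cells. Ly6c2 had 37 and 38 UMIs in the groups, 3.70 and 3.53 CPM, too few to place it beside its neighbours, with a log2 ratio of 0.07 and an interval from -0.62 to 0.76. Of 20 Ly6 family genes in the table, 11 had no UMI in either group.

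Outside the Ly6 family, Pdlim4, which encodes an actin-associated PDZ and LIM domain protein, stood at 215.0 and 95.3 CPM (log2 ratio 1.17, 1.07 to 1.28), and was detected in 57.2% and 28.3% of cells. Arl5c, a small GTPase of the ARF-like family, stood at 80.0 and 44.0 CPM (log2 ratio 0.86, 0.70 to 1.03). The remaining genes among the 12 highest were smaller in ratio. They were Gbp2 (0.67), Epsti1 (0.65), Gramd3 (0.55), Socs3 (0.54), Dnajc15 (0.53), Igtp (0.53), Tgtp2 (0.52) and Wdr12 (0.52), all as log2 ratios whose intervals lay above 0.32. Dnajc15, a mitochondrial co-chaperone, lies 29.1 kb from the interferon-inducible Epsti1. Wdr12 takes part in ribosome assembly and overlaps Carf on the opposite strand.

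Several members of this group encode interferon-inducible proteins. Gbp2, a guanylate-binding GTPase of defence against intracellular microbes, stood at 68.5 CPM in Ly6c1-high and 43.0 CPM in Ly6c1-negative cells. Igtp and Tgtp2, of the immunity-related GTPases, stood at 125.2 and 87.0 CPM and at 64.4 and 44.9 CPM. Tgtp2 and the Gbp genes have close copies and Igtp overlaps Irgm2 on the same strand, so their reads may have been divided or dropped in counting.

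The interferon-inducible genes were counted as a list of 73, of which 28 reached 50 CPM. Of these, 6 were higher, among them Gbp2, Epsti1, Igtp, Bst2 and Isg15, and 0 lower, against 0.907% and 2.13% of all genes, and 20 of the 28 had a log2 ratio above 0, against 28.8% of all genes. Their median log2 ratio was 0.10, beside -0.06 for all genes. Bst2 (tetherin, which holds budding viruses at the membrane) stood at 123.8 and 92.2 CPM and Isg15, a ubiquitin-like modifier, at 63.9 and 49.4 CPM. Isg15 rested on few cells, since the 10 Ly6c1-high cells with the most UMIs of it gave 23.5% of its count. The most abundant of the list, Shisa5, stood at 1446 and 1566 CPM (log2 ratio -0.12), and Ifi27l2a at 636.5 and 667.2 CPM (-0.07). The 17 measured genes of MHC class I presentation, also interferon-inducible, were all within the limits, as were 97.0% of all genes, with H2-K1 at 2928 and 2817 CPM. Their median log2 ratio was 0.00, beside -0.06 for all genes, and 10 of the 17 lay above 0, against 28.8% of all genes. Scaled so that the median of all genes was 0, 15 of the 17 lay above 0, against 49.98% of all genes.

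The promoters of 3 of these genes are shown because each held both of the motifs named above within 250 bases before its start. The capitals mark the matches, which in Bst2 overlap, and the windows are from RefSeq on GRCm38.p6: Igtp at chr11:58199491-58199550 on the plus strand, Tgtp2 at chr11:49064254-49064313 and Bst2 at chr8:71537568-71537627 on the minus strand.
Igtp: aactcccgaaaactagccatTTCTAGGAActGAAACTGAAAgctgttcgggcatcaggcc
Tgtp2: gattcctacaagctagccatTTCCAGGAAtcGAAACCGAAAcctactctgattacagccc
Bst2: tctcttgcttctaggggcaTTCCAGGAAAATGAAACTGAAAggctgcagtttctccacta
Among 32851 promoter windows, 7.02% held TTCNNNGAA, 2.98% GAAANNGAAA and 0.332% both. Of the 23 higher genes 15 had a window, and TTCNNNGAA was found in 4 of them (Bst2, Igtp, Socs3, Tgtp2) and GAAANNGAAA in 5 (Bst2, Gbp2, Igtp, Isg15, Tgtp2). Of the 54 lower genes 39 had a window, with 4 and 0. Some genes had more than 1 window, 18 windows in all for the higher and 47 for the lower genes. The shares above are of windows and these counts are of genes, so they are not in the same unit. A match is a run of letters and was not tested as a binding site.

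Cd5 and Cd6, which restrain T cell receptor signalling, and Izumo1r were looked at first. Cd5 stood at 239.6 CPM (230.1 to 249.4) in Ly6c1-high cells and at 395.0 CPM (383.3 to 407.1) in Ly6c1-negative cells, a log2 ratio of -0.72 (-0.79 to -0.65). It was detected in 59.7% and 72.7% of cells, and in 44.2% and 60.04% after thinning. Cd6, a relative of CD5 whose gene lies 50.3 kb away on chromosome 19, stood at 139.7 CPM (132.5 to 147.2) and 229.4 CPM (220.5 to 238.7), also a log2 ratio of -0.72 (-0.81 to -0.62), with 44.1% and 60.7% of cells. Both neighbours were thus lower by nearly the same ratio.

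Izumo1r encodes folate receptor 4, a surface protein known from regulatory and anergic CD4+ T cells. It had the lowest ratio of the genes with a mean of at least 50 CPM. It stood at 47.2 CPM (43.1 to 51.7) in Ly6c1-high and 142.6 CPM (135.5 to 149.9) in Ly6c1-negative cells, a log2 ratio of -1.59 (-1.75 to -1.44). It was found in 13.8% and 31.8% of the cells, or 9.29% and 24.3% after thinning. Most cells of both groups thus had no Izumo1r UMI. Cells with a Foxp3 UMI, which the limits left out, stood at 445.7 CPM of Izumo1r, above both groups. The 13 regulatory T cell markers, Foxp3 at 0 by the choice of cells, summed to 156.4 CPM in Ly6c1-high and 206.5 CPM in Ly6c1-negative cells, with Tnfrsf18 the most abundant at 67.6 and 77.8 CPM. In the cells that also had no UMI of the memory and regulatory genes Itgb1, Ccl5, Cxcr3, Ikzf2, Il2ra and Ctla4, Izumo1r stood at a log2 ratio of -1.65 and Cd5 at -0.68.

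Of 29 genes that restrain receptor signalling, 16 reached 50 CPM. Of these, 4 were lower (Izumo1r, Cd5, Cd6 and Ptpn6), 0 higher and 12 within the limits, against 2.13%, 0.907% and 97.0% of all genes. A log2 ratio below 0 was found for 14 of 16, against 71.2% of all genes, and the median was -0.18, beside -0.06. Ptpn6, the phosphatase SHP-1, stood at 135.8 and 173.4 CPM (log2 ratio -0.35). Scaled so that the median of all genes was 0, Ptpn6 came to -0.29, within the limits, which leaves as lower Izumo1r, Cd5 and Cd6 alone, against 1.42% of all genes, and 11 of 16 below 0, against 49.98% of all genes. Csk, the kinase that holds Lck inactive, stood at 254.0 and 286.3 CPM (-0.17), and Dgka, which removes diacylglycerol, at 608.9 and 612.9 CPM (-0.01). Izumo1r, a folate receptor family protein known as a marker of regulatory and anergic T cells, was counted on the list although it is not known as a restrainer. Without it, a count made after the data were seen, 3 of 15 were lower (2 of 15 after scaling), 13 of 15 lay below 0 (10 of 15 after scaling) and the median was -0.17. Izumo1r, Cd5 and Cd6 were picked with earlier results known, so they are no independent support for the list.

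Of 23 measured genes of proximal receptor signalling, 21 were within the limits, beside 97.0% of all genes, with a median log2 ratio of -0.08, beside -0.06. The exceptions were Rasgrp1, which activates Ras, at 130.9 and 170.9 CPM (-0.38), and Trat1, a receptor-associated adaptor, at 108.8 and 81.0 CPM (0.43). Cd28, the costimulatory receptor, stood at 243.7 and 285.8 CPM (-0.23), and Lck, the kinase that starts the signal, at 784.5 and 842.9 CPM (-0.10).

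Of 27 genes induced by receptor signals, 8 reached 50 CPM, of which 1 was higher, 1 lower and 6 within the limits, against 0.907%, 2.13% and 97.0% of all genes, with a median log2 ratio of -0.06, the same as that of all genes. Dusp2, a phosphatase of MAP kinases, stood at 149.2 and 215.0 CPM (-0.53), and Jun at 101.0 and 78.3 CPM (0.37). Cd69 was near equal at 114.2 and 112.9 CPM. This median leaves out the members below 50 CPM, most of which lay below 0, such as Egr1 (-0.43, mean 47.5 CPM) and Tox (-0.65, mean 44.2 CPM). Only Rel (0.07) and Dusp5 (0.23) lay above, and the share of all genes at such levels was not counted. Below 50 CPM, the immediate-early factor Nr4a1 stood at 17.0 and 34.3 CPM, but in nearly the same share of cells, 2.98% and 3.38%. The 10 cells with the most UMIs gave 62.4% and 56.8% of its count. Egr2 had 37 UMIs in Ly6c1-high and 126 in Ly6c1-negative cells, in 1.11% and 2.58% of them. The costimulatory receptor genes Tnfrsf4 and Tnfrsf9 had 57 and 212 UMIs and 15 and 165 UMIs. The Nr4a1 and Egr2 transcripts thus came from few cells of either group. For Tnfrsf4 and Tnfrsf9 only UMI totals are given, which do not show how many cells held them. With every cell that held a Nr4a1 UMI left out, 21 genes were higher and 55 lower.

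Other genes among the 12 lowest belong to several functions. Ephx1, a microsomal epoxide hydrolase, stood at 27.5 CPM in Ly6c1-high and 78.3 CPM in Ly6c1-negative cells, a log2 ratio of -1.51 (-1.71 to -1.31), and was detected in 11.8% and 26.6% of cells. Id3, an inhibitor of E protein transcription factors, stood at 84.97 and 164.1 CPM (-0.95), and Itm2a, a membrane protein known from thymocyte selection, at 78.3 and 146.7 CPM (-0.91). Igfbp4, an insulin-like growth factor binding protein that naive T cells express, stood at 748.0 and 1242 CPM (-0.73). Igfbp4 was thus lower although most cells of both groups held it, 77.2% and 80.1%. The other members were Klhdc2 (-0.79), Rgs10 (-0.62), which limits G protein signals, Ddit4 (-0.60), an inhibitor of mTORC1, Ramp1 (-0.57), a co-receptor for calcitonin gene-related peptide, and Dtx1 (-0.53), a ubiquitin ligase of the Notch pathway.

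**Figure D2:**
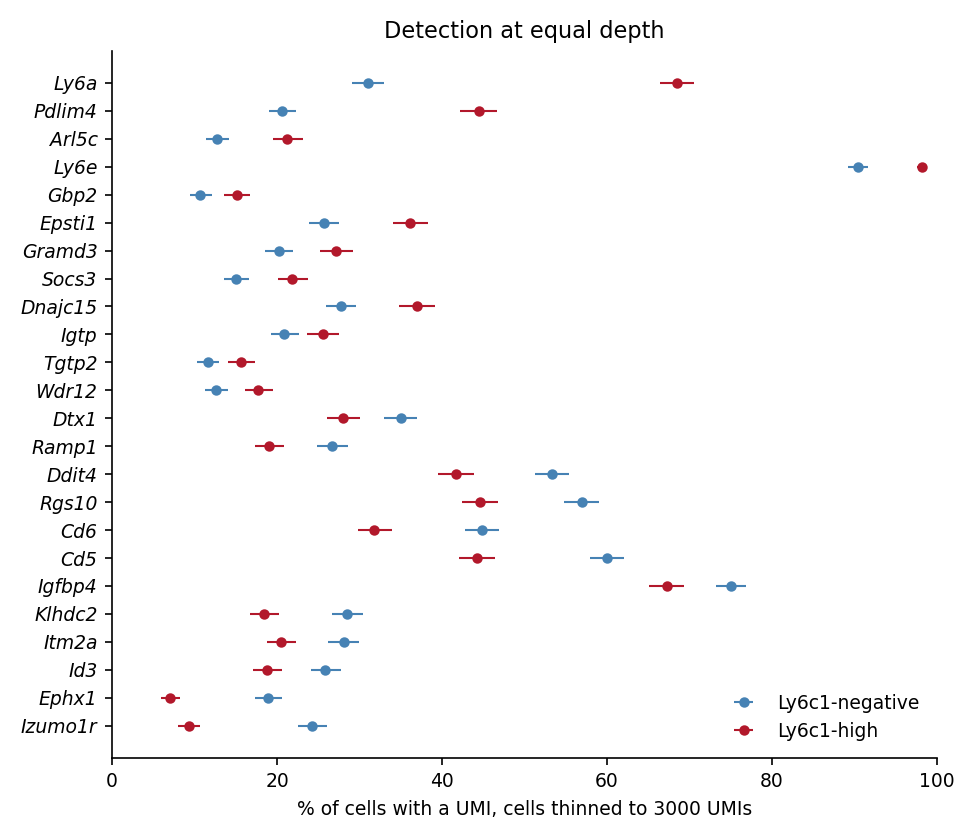
Share of cells with at least 1 UMI (horizontal axis, percent) for the 12 genes with the highest and the 12 with the lowest log2 ratio, after every cell was thinned to 3000 UMIs. Points are Ly6c1-high (red) and Ly6c1-negative cells (blue), lines are exact 95% intervals, and the shares of Ly6a (68.5% and 31.0%) and Pdlim4 (44.4% and 20.6%) lie farthest apart.

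Of 21 naive and homing genes, 19 were within the limits, beside 97.0% of all genes, with a median log2 ratio of -0.07, near that of all genes. Ccr7, the chemokine receptor for lymph node entry, stood at 726.7 and 760.2 CPM, Klf2, the factor that keeps the egress receptor gene S1pr1 expressed, at 1068 and 1122 CPM, and Tcf7, a factor of the naive programme, at 458.4 and 463.6 CPM. The exceptions were Igfbp4 and Dapl1 (497.6 and 393.0 CPM, 0.34).

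Of 20 measured cytokine receptor and signalling genes, 18 were within the limits, beside 97.0% of all genes. A log2 ratio above 0 was found for 10 of the 20, against 28.8% of all genes, and the median was 0.01, beside -0.06. Socs3, the feedback inhibitor of IL-6 family signals, stood at 88.4 and 60.9 CPM (0.54), and Bcl2, the survival factor maintained by IL-7, at 185.8 and 261.1 CPM (-0.49). The receptor genes themselves were nearer to each other, with Il7r at 508.0 and 451.0 CPM (0.17), Ifngr1 at 126.6 and 109.2 CPM (0.21), Il6ra at 205.7 and 196.9 CPM (0.06) and Il27ra at 124.6 and 148.6 CPM (-0.25).

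Of 34 memory or effector genes, 6 reached 50 CPM, of which 5 were within the limits, beside 97.0% of all genes. Vim, the intermediate filament vimentin, stood at 374.0 and 533.3 CPM (-0.51), and Lgals1, the lectin galectin-1, at 348.2 and 282.4 CPM (0.30, and 0.36, past the limit, with the median of all genes scaled to 0). List members below 50 CPM went both ways. Among them, Id2 (-1.47), Anxa2 (-1.34), Ahnak (-0.68) and Itgb1 (-0.43) lay below 0, and Prf1 (0.90) and Cd44 (0.19) above. Maf (-2.74), Cxcr3 (-2.21) and Nkg7 (-2.77) also lay below 0, at means of only 3.47, 1.97 and 2.34 CPM. Klrd1, which encodes the receptor chain CD94 of natural killer and some T cells, was also below 50 CPM, with a mean of 43.9 CPM. It stood at 60.9 and 27.0 CPM (1.17, 0.97 to 1.38) in 21.9% and 10.1% of cells. The other 7 natural killer markers summed to 17 UMIs in Ly6c1-high and 7 in Ly6c1-negative cells, too few to set beside it.

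Of the B cell list, Ighm, the constant region of IgM, was higher, at 340.2 and 242.0 CPM (0.49), in 76.1% and 61.6% of cells. The list summed to 345.1 and 251.9 CPM, nearly all of it Ighm, while Cd79a had 1 and 17 UMIs and Cd74 15 and 53. Barcodes with 2 or more Cd79a UMIs and no Cd3d or Cd3e numbered 0, so no cell type without Ly6c1 was at hand to measure RNA carried free in the droplets. The part of free RNA in the shares of cells was not tested. The myeloid markers summed to 76.9 and 83.6 CPM, nearly all Cst3, the endothelial ones to 88.2 and 89.9 CPM, nearly all Pecam1, and Cd8a and Cd8b1 to 36.4 and 23.7 CPM, with Cd8a at 0 and 3 UMIs. In the cells with no UMI of Cd79a, Cd74, Cd8a, Cd8b1, Lyz2, Klrb1c or Nkg7, the log2 ratio was 1.58 for Ly6a, -0.72 for Cd5 and -1.52 for Izumo1r. Markers of thymic emigrants summed to 49.7 and 76.2 CPM, most of it Tox, at 34.4 and 53.9 CPM, which is also on the list of genes induced by receptor signals. The other markers had 153 and 240 UMIs together and went both ways. Sox4 lay at a log2 ratio of -0.93 (mean 11.9 CPM) and Dntt at 1.46 (mean 3.14 CPM). Among T cell receptor beta variable segments, 12 reached 50 CPM, of which 1 was higher (Trbv20, 96.5 and 67.6 CPM) and 3 lower (Trbv3, Trbv13-1 and Trbv15), against 0.907% and 2.13% of all genes.

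Of 77 measured ribosomal protein genes, 0 passed the limits in either direction, beside 97.0% of all genes within them. A log2 ratio above 0 was found for 73 of the 77, against 28.8% of all genes, and the median was 0.07, beside -0.06. In sum they took 332486 CPM in Ly6c1-high and 314345 CPM in Ly6c1-negative cells. CPM values share a fixed total, so a larger share for these genes leaves a smaller one for the rest. The median of all genes was at -0.06, and how far the share of ribosomal protein genes bears on it was not tested.

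**Figure D3:**
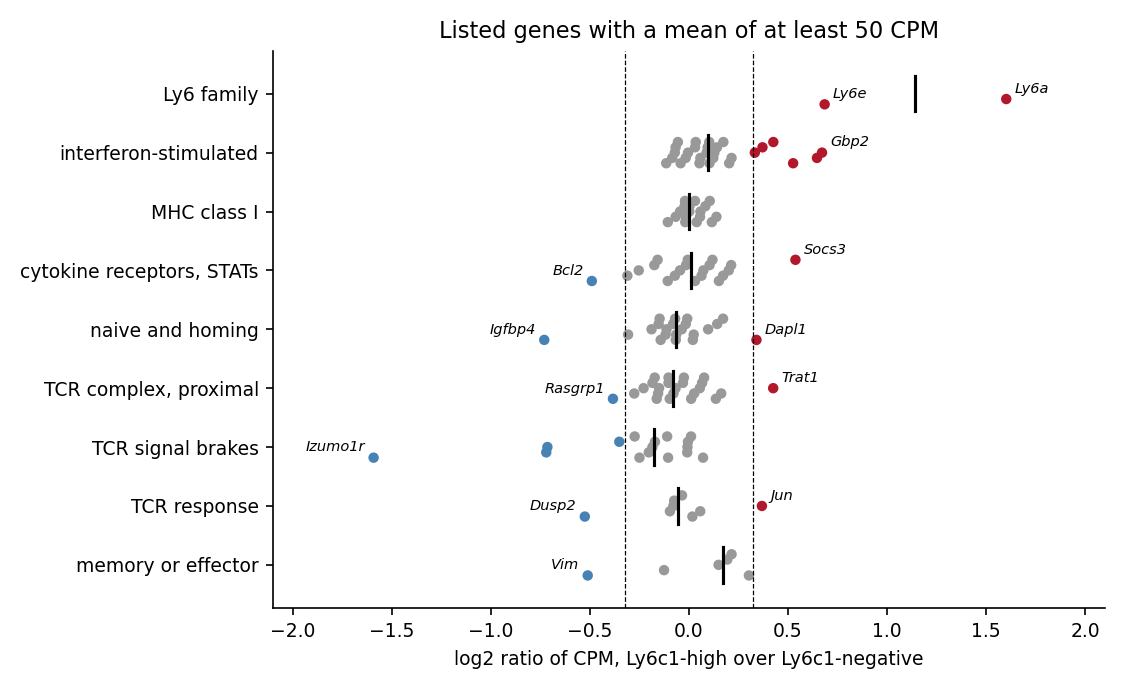
Log2 ratio of CPM, Ly6c1-high over Ly6c1-negative cells (horizontal axis), for the members of the main gene lists that reached a mean of 50 CPM. Each point is a gene (red higher, blue lower, grey within the limits), black bars are list medians and dashed lines mark the limits of -0.32 and 0.32. Of the interferon-inducible genes 20 of 28 lie above 0, and of the genes that restrain receptor signalling 14 of 16 lie below, beside 28.8% and 71.2% of all genes.

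The cells with 1 or 2 Ly6c1 UMIs, used by neither group, were then set between them. Ly6a stood at 184.1, 302.8, 376.5, 436.2 and 669.9 CPM in cells with 0, 1, 2, 3 to 4, and 5 or more Ly6c1 UMIs. Cd5 stood at 395.0, 323.1, 302.2, 263.2 and 218.3 CPM in the same order. Izumo1r stood at 142.6, 69.4, 60.3, 55.2 and 40.0 CPM. For all 3 genes the cells with 1 or 2 UMIs lay between the ends. Of the 12 highest genes 10 went up at every step (the exceptions were Gramd3 and Dnajc15), beside 2.33% of all genes, and of the 12 lowest 10 went down at every step (the exceptions were Itm2a and Ramp1), beside 5.72% of all genes. These genes were picked for the ratio between the ends, which fixes much of this order, so nothing is read from it. Median depth also went up over these cells, from 4671.5 through 4841, 4878.5 and 4913 to 5019 UMIs. Tcf7, by contrast, stayed between 436.1 and 463.6 CPM.

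**Figure D4:**
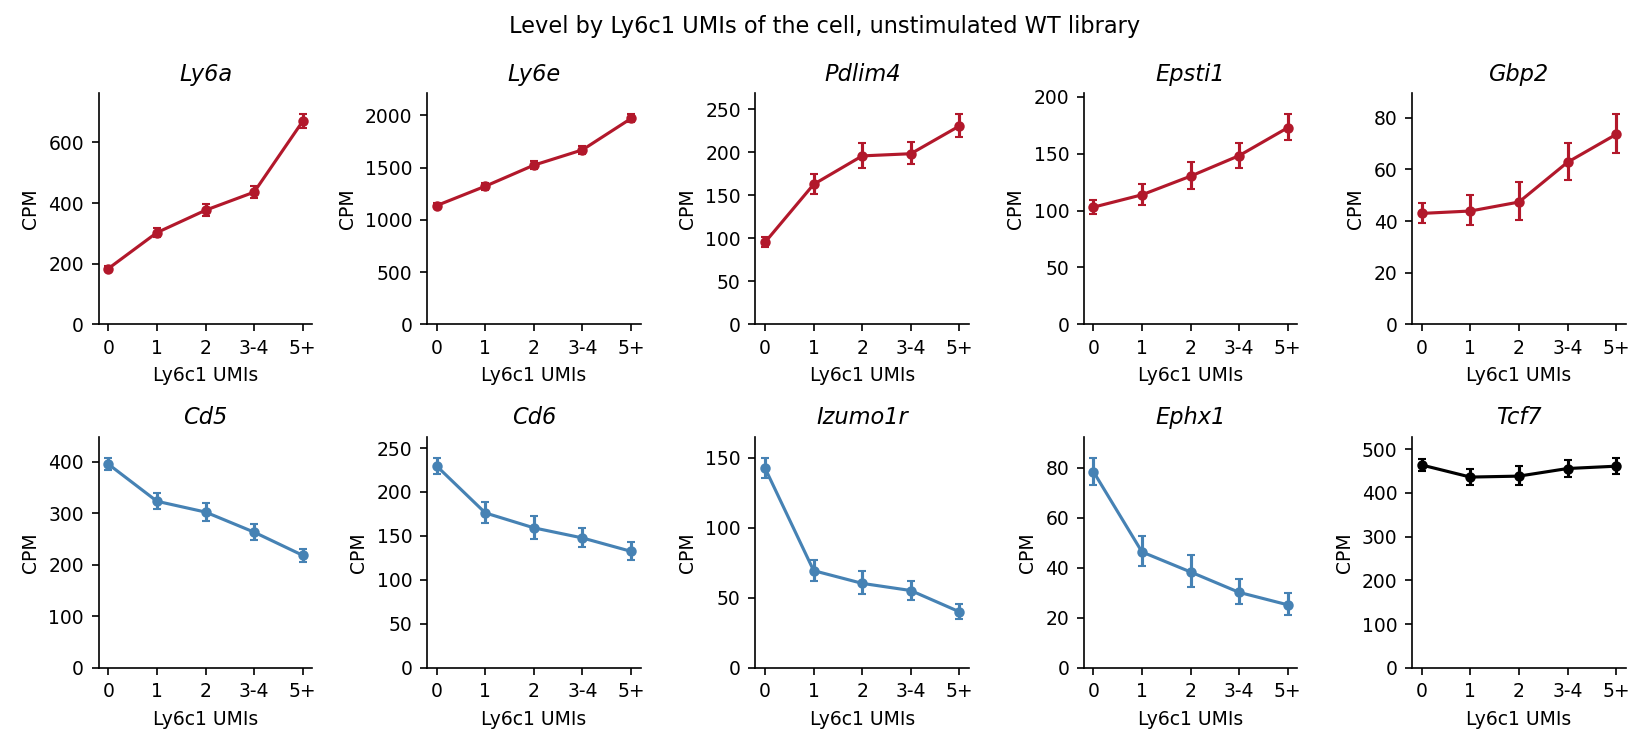
CPM (vertical axes) of named genes in cells with 0, 1, 2, 3 to 4, and 5 or more Ly6c1 UMIs (horizontal axes), with exact 95% Poisson intervals, red for genes higher and blue for genes lower in Ly6c1-high cells and black for Tcf7. Ly6a goes from 184.1 to 669.9 CPM and Cd5 from 395.0 to 218.3 CPM.

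The Ly6c1-high cells were not alike. Of the 1980, 274 (13.8%) held an Izumo1r UMI and 1554 (78.5%) a Ly6a UMI. Within them, Cd5 was higher in cells with Izumo1r than in those without (log2 ratio 0.78, 0.63 to 0.91), as were Cd6 (0.73, 0.54 to 0.91) and Ephx1 (1.21, 0.81 to 1.60), while Pdlim4 was lower (-0.59, -0.80 to -0.39). Ly6c1-negative cells, 715 of them with Izumo1r, gave the same directions, at 0.46 for Cd5, 0.43 for Cd6, 0.81 for Ephx1 and -0.78 for Pdlim4. Cd5, Cd6 and Ephx1 were thus higher in cells with Izumo1r both where Ly6c1 was held and where none was counted. The cells with Izumo1r were themselves chosen on a UMI of it, and their median depth among Ly6c1-high cells was 5229.5 UMIs.

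Splitting by Ly6a gave another order. Among Ly6c1-high cells, those with a Ly6a UMI held more Gbp2 (log2 ratio 1.14, 0.79 to 1.51), Igtp (0.67, 0.44 to 0.90) and Ly6e (0.35, 0.29 to 0.40) than the 426 without, and less Ephx1 (-0.57, -0.95 to -0.17). Cd5 (-0.06, -0.20 to 0.08) and Pdlim4 (0.06, -0.09 to 0.22) had intervals that spanned 0. Among Ly6c1-negative cells, with Ly6a in 909 of 2250, Gbp2 was at 0.56, Igtp at 0.60 and Ly6e at 0.48, and here Cd5 was lower (-0.22, -0.31 to -0.13) and Pdlim4 higher (0.40, 0.22 to 0.58). Gbp2 and Igtp were thus higher in cells with Ly6a within both groups, and the ratios of Cd5 and Pdlim4 were farther from 0 over Izumo1r than over Ly6a in both.

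**Figure D5:**
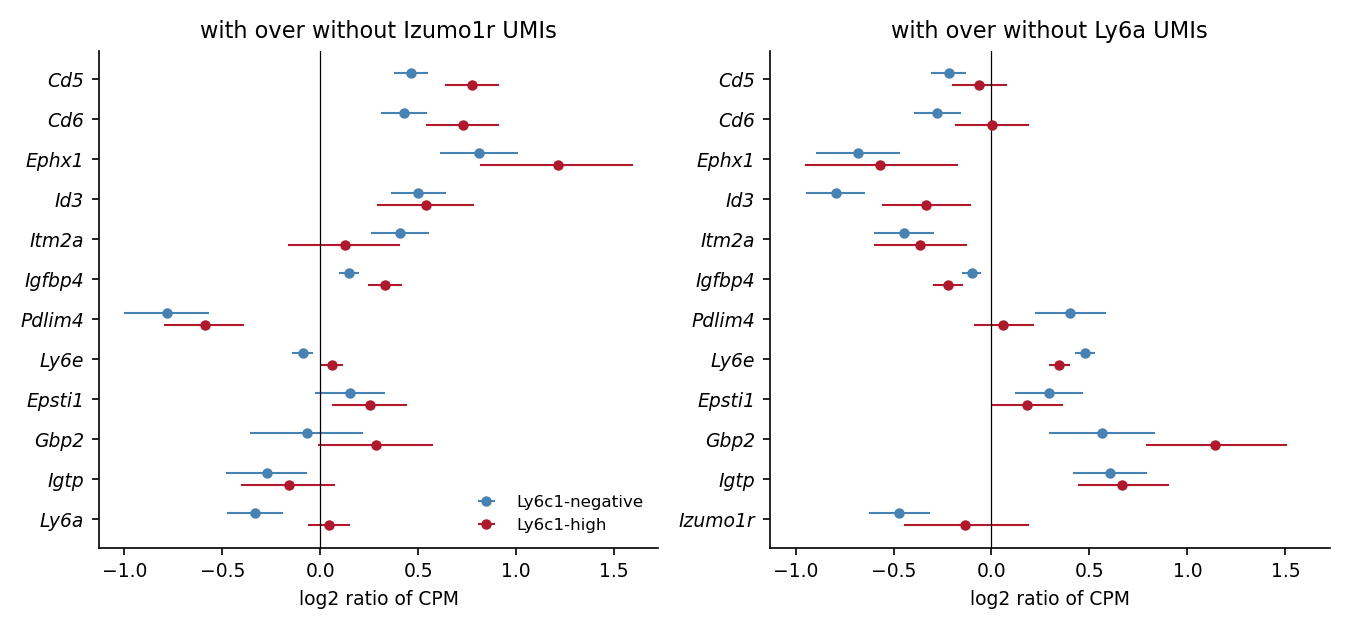
Log2 ratio of CPM (horizontal axis) between cells with and without an Izumo1r UMI (left) and with and without a Ly6a UMI (right), within the Ly6c1-high (red) and the Ly6c1-negative (blue) cells of the unstimulated library. Lines are exact 95% intervals. Cd5 lies at 0.78 and 0.46 on the left and at -0.06 and -0.22 on the right.

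Cells that the limits left out were also looked at. Among 254 cells with a Foxp3 UMI, 35.0% (29.2 to 41.3) had 3 or more Ly6c1 UMIs, with 492.4 CPM of Ly6c1, close to the 33.0% of the cells that passed. Among 21 cells with S100a4 and no Foxp3, 0 had 3 or more Ly6c1 UMIs, which allows a share of up to 16.1%, and 6 had 1 or more.

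After 24 h of stimulation few cells carried Ly6c1. Over all barcodes Ly6c1 stood at 433.9 CPM in the unstimulated, 19.5 CPM in the stimulated WT and 2.52 CPM in the stimulated knockout library, and Ly6a at 347.3, 338.2 and 45.5 CPM. Each value is from 1 library, so condition and library cannot be told apart. Under the same limits, 34 of 565 stimulated WT cells (6.02%, 4.203 to 8.308) and 3 of 1495 knockout cells (0.201%, 0.0414 to 0.585) had 3 or more Ly6c1 UMIs. The window of 3000 to 8000 UMIs kept 76.3%, 7.00% and 16.2% of the barcodes of the 3 libraries (median 4576, 11870.5 and 4981 UMIs per barcode). In the stimulated WT library it thus took shallow cells. The median of the knockout library lay inside it, but the window took shallow cells there too. Ly6c1-negative knockout cells had a median of 5010 UMIs in the window and 11415.5 with no upper limit. With no upper limit the stimulated WT share was 2.94%.

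The same split was made in the stimulated WT library, which the choice of genes did not use. Ly6a stood at 4281 CPM in the 34 Ly6c1-high cells and at 482.6 CPM in 473 Ly6c1-negative cells (log2 ratio 3.15, 3.03 to 3.27). Gbp2 stood at 2166 and 489.1 CPM (2.15, 1.99 to 2.30) and Ly6e at 1686 and 576.5 CPM (1.55, 1.38 to 1.71). Cd5 stood at 296.7 and 569.0 CPM (-0.94, -1.33 to -0.58), Cd6 at 122.5 and 262.8 CPM (-1.10, -1.73 to -0.54) and Izumo1r at 235.5 and 596.6 CPM (-1.34, -1.78 to -0.94). Of the 12 genes highest in the unstimulated library 11 had a log2 ratio above 0 here, the exception being Wdr12, and 9 an interval above 0. Of the 12 lowest 10 were below 0, the exceptions being Dtx1 and Igfbp4, and 7 had an interval below 0. Of all genes, 46.2% were above 0 and 53.8% below. Some of these directions rest on few UMIs in Ly6c1-high cells, 4 for Arl5c, 2 for Ramp1 and 1 for Dtx1. Among naive genes, Ccr7 stood at 1144 and 627.0 CPM (0.87, 0.67 to 1.06), having been near equal before stimulation. Il7r, the receptor for interleukin-7, stood at 47.1 and 18.8 CPM (1.33, 0.19 to 2.31), beside a log2 ratio of 0.17 in the unstimulated library. B2m, the light chain of MHC class I, stood at 2407 and 1326 CPM (0.86, 0.72 to 0.99), beside 0.08 in the unstimulated library. With no upper UMI limit the ratios were 0.22 (0.15 to 0.29) for Ccr7, 2.18 (1.71 to 2.62) for Il7r and 0.74 (0.69 to 0.78) for B2m. Tcf7 stood at 0.42 (-0.07 to 0.88) in the window and at 0.16 (-0.03 to 0.34) with no upper limit.

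With no upper UMI limit, a setting chosen after the data were seen, 220 Ly6c1-high and 6664 Ly6c1-negative stimulated WT cells were compared. Ly6a stayed at a log2 ratio of 3.31, whereas Cd5 (-0.18, -0.25 to -0.12), Cd6 (-0.40, -0.50 to -0.30) and Izumo1r (-0.25, -0.33 to -0.17) came nearer to 0. The directions matched the unstimulated library for 10 of the 12 highest genes and 11 of the 12 lowest, 9 and 9 of them with an interval clear of 0, where 45.1% of all genes were above 0 and 54.9% below.

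In the stimulated knockout library the window held 3 Ly6c1-high and 1471 Ly6c1-negative cells, in which the log2 ratio of Ly6a was 4.41 (3.79 to 4.97, from 27 UMIs in the 3 cells). With no upper limit 14 and 7334 cells were compared, and so few cells of 1 library can rest on single cells. Ly6a stood at 962.9 and 37.4 CPM (4.69, 4.46 to 4.90), Gbp2 at 447.3 and 108.4 CPM (2.04, 1.72 to 2.35) and Ly6e at 768.2 and 280.6 CPM (1.45, 1.21 to 1.69). All 3 were higher in the Ly6c1-high cells, as in both WT libraries. Cd5 stood at 615.6 and 783.6 CPM (-0.35, -0.62 to -0.09), Cd6 at 184.2 and 334.2 CPM (-0.86, -1.38 to -0.38) and Izumo1r at 420.9 and 479.7 CPM (-0.19, -0.52 to 0.13). The interval of Izumo1r spanned 0.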

How the data were processed

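Single-cell RNA-seq was analysed for 3 libraries of mouse splenic CD4+ T cells, 1 per condition. The authors deposited raw UMI counts per gene and barcode, made with Cell Ranger (3.1.0 in the matrix header) on mm10 per the labels. The labels name a 5′ kit and the methods a 3′ kit. Filtered barcodes were used as deposited, 8253 to 13932 per library. No doublet caller was run and the upper limit of 8000 UMIs stood in for one. No column was left out.

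UMIs were summed over the cells of each group and scaled to CPM with Python 3.11.15, numpy 2.4.6, scipy 1.17.1 and pandas 2.3.3. No p-value was computed. Thinning drew 3000 UMIs per cell without replacement. The ratio and its interval were tested on simulated data. Named genes were Ly6c1, Ly6a, Cd5, Cd6 and Izumo1r, the 12 highest and 12 lowest log2 ratios at a mean of 50 CPM or more (receptor segments and unnamed models left out), and from each list the 4 most abundant members and every member past the fold limits. Some genes below a mean of 50 CPM were added after their values were seen (Egr1, Egr2, Tox, Rel, Dusp5, Tnfrsf4, Tnfrsf9, Sox4, Dntt, Cd79a, Cd74, Klrd1 and the other low memory or effector genes). The cells within groups and the receptor segments were also added after their values were seen. The members and lists were chosen with earlier results of these data known. Alternatives varied the Ly6c1 limit, UMI window, mitochondrial limit, scaling, minimum level, fold and cell filters. Positions are from GENCODE M21 on GRCm38, with 30934 of 31053 gene IDs matched. Some genes that the rule names are not reported here.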

Additional observations from a re-analysis of the deposited data

Results flagged for a closer look

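Sign changes were looked for only in a small set of chosen genes, mainly those with the highest and lowest ratios in the unstimulated library. In 4 of these genes the difference between Ly6c1-high and Ly6c1-negative cells had one sign unstimulated and the other in the stimulated WT library. The stimulated cells were those of 3000 UMIs or more (220 and 6664 cells), and both intervals were clear of 0. The share of all genes that changed sign in this way was not counted, so these 4 cannot be called unusual. Each condition has 1 library, so the difference between conditions was not tested. Igfbp4 went from a log2 ratio of -0.73 to 1.47, Ccr7 from -0.06 to 0.22 and Nr4a1 from -1.01 to 1.01. Wdr12 went the other way, from 0.52 to -0.19. With each library scaled so that the median of all genes was 0, both intervals stayed clear of 0 in 2 of the 4 genes, Igfbp4 (-0.67 and 1.49) and Nr4a1 (-0.95 and 1.03). Ccr7 then stood at 0.00 (-0.05 to 0.04) in the unstimulated library, so its sign there was that of all genes, and Wdr12 at -0.16 (-0.34 to 0.01) in the stimulated one. Most of the unstimulated Nr4a1 count came from few cells of each group, as given above, which its interval does not cover. In the shallower stimulated cells of 3000 to 8000 UMIs, Nr4a1 stood at -0.33, Igfbp4 at 0.12 and Wdr12 at -0.93, each with an interval that spanned 0. Ccr7 stood at 0.87 (0.67 to 1.06) in the same cells, clear of 0. The Nr4a1 value in these shallower cells rests on 46 UMIs in 3 of 34 Ly6c1-high cells. A Nr4a1 UMI was found in 8.82% of these Ly6c1-high and 28.1% of these Ly6c1-negative cells. With no upper limit the shares were 46.8% and 43.1%.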

How the results depend on the processing

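The directions of Ly6a, Cd5, Cd6 and Izumo1r were kept under all 11 alternatives that recompute the ratio, and so were those of the other 20 named genes, of whose 220 values 199 stayed within the interval of the reported value and 21 moved. The alternatives reuse cells of the same library, and the 20 genes were picked for their ratios in it. Kept directions were thus likely beforehand and are no independent support. The counts of genes past the fold depended on the settings. A minimum mean of 20 CPM gave 53 higher and 216 lower, 1 UMI or more in each group 1254 and 2089, a fold of 1.5 gave 6 and 10, and cells of 4000 to 5000 UMIs, with fewer cells, 43 and 113. A limit of 5 or more Ly6c1 UMIs gave 35 and 80, and scaling by the median ratio 37 and 36. Choosing both groups after thinning gave 28 and 69, of which 21 and 36 were among the reported 23 and 54. With 2 or more Ly6c1 UMIs, Ly6a stood at a log2 ratio of 1.47 and Cd5 at -0.62, and with 5 or more, Ly6a at 1.86, Cd5 at -0.86 and Izumo1r at -1.83. Choosing both groups after thinning put Cd5 at -0.80. Cells of 4000 to 5000 UMIs put Cd5 at -0.83, Cd6 at -0.86 and Izumo1r at -1.77. The cause of these shifts was not tested. Thinning lowered the shares of cells to 68.5% and 31.0% for Ly6a, 44.2% and 60.04% for Cd5, 31.8% and 44.8% for Cd6, and 9.29% and 24.3% for Izumo1r, Ly6c1-high cells first, through the fewer UMIs it leaves. No paired analysis was possible because each condition has 1 library. With 1 library per condition, no value shows how far mice differ, and the intervals do not cover it. A cell with 0 Ly6c1 UMIs may still hold the transcript, since a median of 4671.5 UMIs per cell samples a small part of its RNA.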
